A study of Homo sapiens with 8 samples.

Results

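The genes for the subunits of the phosphoinositide 3-kinases (PI3-kinases) were followed in PANC-1 cells treated with Eupalinolide B (EB). The set held 10 of the 20263 genes of the expression table, namely PIK3R1, PIK3R2 and PIK3R3 (regulatory subunits of class IA), PIK3CA, PIK3CB and PIK3CD (catalytic subunits of class IA), PIK3C2A and PIK3C2B (class II), and PIK3C3 and PIK3R4 (class III). These members were selected on their symbols with the difference between EB and DMSO in these libraries already known. Their levels and fold changes are therefore given as a description. Where a member is said to be called, this is its outcome in the fit across all genes and is not independent evidence that it differs. PANC-1 is a long-established human line derived from a pancreatic ductal carcinoma, so that all libraries come from 1 line. One group received 10 μM EB for 24 h and the other the vehicle dimethyl sulfoxide (DMSO), with 4 libraries in each and no other agent or genetic change. The methods state 4 biological replicates per group and elsewhere speak of triplicates. Levels are TPM, an abundance scaled by transcript length and to a fixed sum in each library, so that genes can be set side by side. Libraries are numbered here as DMSO 1 to 4 and EB 1 to 4.

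PI3-kinases are lipid kinases that phosphorylate the inositol ring of membrane phosphoinositides. A class IA enzyme is a heterodimer in which a regulatory subunit stabilizes and restrains a catalytic subunit and brings it to phosphorylated receptors and adaptors, where it makes the lipid that recruits AKT. Class II enzymes act without such a regulatory subunit in endocytosis and vesicle traffic, and the class III enzyme PIK3C3 (VPS34) works with its adaptor PIK3R4 (VPS15) in autophagy and endosomal sorting. In carcinoma of the pancreatic duct the pathway is known as a branch downstream of growth factor receptors.

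The bases upstream of the transcription start are shown for PIK3R1, the member whose EB libraries all lay above the DMSO libraries, and for PIK3R3, PIK3C2B and PIK3R2, the 3 members with the lowest fold changes. The sequences are from RefSeq on GRCh38.p14, run 5′ to 3′ on the strand of the gene, and are trimmed to bases outside annotated exons. RefSeq lists 4 starts for PIK3R1, 6 for PIK3R3 and 1 each for PIK3R2 and PIK3C2B, and the start of the GENCODE canonical transcript was taken. For PIK3R3 this start, and with it the stretch shown, lies inside the annotated interval of the gene. For PIK3R1 the start also lies inside that interval, but the stretch shown ends before the interval begins. The stretches lie at chr5:68215506-68215739 on the plus strand (PIK3R1), chr19:18152913-18153157 on the plus strand (PIK3R2), chr1:46132630-46132698 on the minus strand (PIK3R3) and chr1:204494806-204495055 on the minus strand (PIK3C2B). Capitals mark the GC box GGGCGG and the ETS motif CCGGAAG on either strand.
PIK3R1: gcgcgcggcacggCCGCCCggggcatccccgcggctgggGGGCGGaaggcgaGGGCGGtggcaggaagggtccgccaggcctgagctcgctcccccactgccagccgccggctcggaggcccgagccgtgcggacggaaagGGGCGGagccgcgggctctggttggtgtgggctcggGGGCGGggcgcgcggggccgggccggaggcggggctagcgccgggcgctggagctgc
PIK3R2: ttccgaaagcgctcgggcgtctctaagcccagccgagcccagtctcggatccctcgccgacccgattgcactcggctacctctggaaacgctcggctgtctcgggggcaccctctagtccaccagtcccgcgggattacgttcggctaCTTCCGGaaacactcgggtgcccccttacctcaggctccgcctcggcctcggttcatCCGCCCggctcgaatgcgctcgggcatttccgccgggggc
PIK3R3: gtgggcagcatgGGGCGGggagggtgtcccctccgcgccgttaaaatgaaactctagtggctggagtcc
PIK3C2B: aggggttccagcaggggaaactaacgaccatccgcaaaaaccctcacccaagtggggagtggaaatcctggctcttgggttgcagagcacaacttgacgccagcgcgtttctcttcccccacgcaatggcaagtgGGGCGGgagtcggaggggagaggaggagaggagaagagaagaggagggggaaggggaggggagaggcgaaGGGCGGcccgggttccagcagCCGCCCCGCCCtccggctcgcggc
All 10 members matched a RefSeq start. In the 250 bases before it, GGGCGG was found on either strand in 9 of the 10 members, PIK3R4 being the exception, and in 42.6% of all 35116 promoter windows of that length. PIK3R1 had 5 such boxes, PIK3C2B 4, PIK3R2 2 and PIK3R3 2. For PIK3R2 and PIK3R3, only 1 box each lies in full within the trimmed stretch shown above. CCGGAAG was found in 4 members (PIK3R2, PIK3CA, PIK3C2A and PIK3C3) and in 8.52% of all windows, and CCAAT in 4 members (PIK3CA, PIK3CB, PIK3C2A and PIK3C3) and in 32.01% of all windows. The FOXO motif GTAAACA was found in 1 member, PIK3CA, against 2.98% of all windows. No member window held the AP-1 motif TGACTCA (4.20% of all windows), the CRE TGACGTCA (1.65%), the ATF4 and CHOP motif TGATGCAA (0.772%), the E-box CACGTG (6.34%) or the antioxidant response core TGACNNNGC (10.9%). The windows of the members contained between 10 (PIK3R4) and 37 (PIK3R1) CpG dinucleotides, against a median of 11 over all windows. These matches are letters in a window and no record of binding.

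Of all genes, 11725 reached 1 TPM in 4 or more libraries and were compared by limma on log2(TPM + 1). At a Benjamini-Hochberg adjusted p under 0.05, 25.1% of them were called lower and 15.2% higher with EB. Higher calls made up 37.7% of all calls with the TPM as deposited, 22.7% after rescaling to nuclear genes, 51.1% with median-ratio scaling, 50.3% with quantile normalization and 52.8% with the length and GC trend removed. The median log2 fold change of all genes was −0.11 as deposited and −0.28, 0.01, 0.02 and 0.02 on those scales, and changes of the members are to be read relative to it. Mitochondrially encoded transcripts took 17.01% to 39.0% of the TPM in the DMSO libraries, the highest share being that of DMSO 4, and 11.6% to 20.3% in the EB libraries. Among 5 markers of pancreatic duct epithelium, KRT8, KRT18, KRT19 and SOX9 reached 1 TPM and KRT7 was near 0 in both groups. Their summed TPM was 1129 to 1594 with DMSO and 3261 to 3652 with EB, a sum carried by the keratins, and they did not move together. KRT8, KRT18 and KRT19 rose by 1.20, 1.49 and 1.80 on the log2 scale (limma adjusted p = 0.00109, 6.22e-05 and 3.1e-05), whereas SOX9, a transcription factor of the duct lineage, fell from 149 ± 19.3 to 57.1 ± 11.9 TPM (SD, n = 4 each; log2 fold change −1.38, limma adjusted p = 0.00042). Of 7 leukocyte markers, 1 (CD14) reached 1 TPM in any library, PTPRC and CD3E were listed at 0, and the summed TPM was 0.843 to 1.97 with DMSO and 0.783 to 1.56 with EB. Likewise all 6 acinar and endocrine markers were listed at 0. Of 6 fibroblast and endothelial markers, COL1A1 and COL1A2 reached 1 TPM and DCN, LUM and PECAM1 were listed at 0, with a summed TPM of 64.2 to 92.1 with DMSO and 38.6 to 50.4 with EB. Fewer cells with a transcript and less of it per cell cannot be told apart in such bulk libraries.

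The PI3-kinase transcripts took a smaller share of the EB than of the DMSO libraries, and the regulatory side of class IA was lowest relative to DMSO. The summed TPM of the 10 members was 228.6 ± 42.6 (SD, n = 4) with DMSO and 92.5 ± 15.0 (SD, n = 4) with EB, or 40.5% of the DMSO mean. By class, EB stood at 30.1% of the DMSO mean for the class IA regulatory subunits, 59.8% for the class IA catalytic subunits, 37.1% for class II and 63.1% for class III. Of the 9 members that passed the filter on low values, 7 were called lower and 0 higher, where 25.1% and 15.2% of all genes tested were called. PIK3R1 did not pass that filter. In 6 members every EB library lay below every DMSO library, an arrangement found in 20.3% of all genes tested. PIK3R1 showed the opposite arrangement, found in 16.6% of all genes tested, and PIK3CB, PIK3CD and PIK3C3 overlapped between groups. PIK3R2, PIK3R3 and PIK3C2B also had an unadjusted p under 0.05 with a log2 fold change below −1.5, as 1.54% of all genes tested did. Because the members were picked with this comparison known, nothing is read from these shares.

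**Figure D1:**
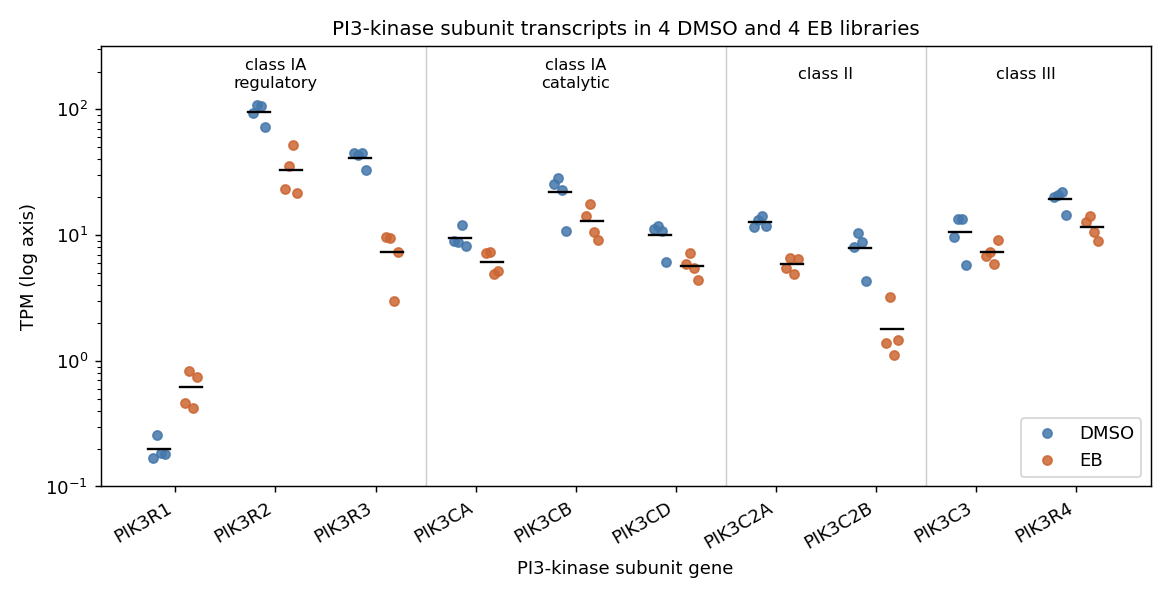
TPM of each PI3-kinase subunit gene (log axis) in the 4 DMSO and the 4 EB libraries, ordered by class, where each point is 1 library and each black line the mean of its group. PIK3R3 and PIK3C2B have the lowest EB means relative to DMSO (17.8% and 22.7%), PIK3R1 lies below 1 TPM in all libraries with EB above DMSO, and PIK3CB, PIK3CD and PIK3C3 overlap.

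Without EB the regulatory transcripts led the set. PIK3R2 (95.0 TPM) and PIK3R3 (41.4) had the highest DMSO means and ranges that overlapped with no other member. PIK3CB (21.9) and PIK3R4 (19.4) came next and could not be ordered, since their ranges overlapped. PIK3C2A (12.6), PIK3C3 (10.6), PIK3CD (10.0), PIK3CA (9.51) and PIK3C2B (7.92) formed a run in which each overlapped with its neighbor, and PIK3R1 was last at 0.198 TPM. In the EB libraries PIK3R2 still led at 33.2 TPM, but PIK3R3 was the fourth at 7.38 TPM, in a run from PIK3CB to PIK3CD in which neighbors overlapped. PIK3C2B (1.80) and PIK3R1 (0.614) were the lowest, each apart from its neighbor.

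PIK3R3 encodes p55γ, a short regulatory subunit that lacks the N-terminal domains of p85. The gene (ENSG00000117461) lies on the minus strand at chr1:46040140-46133036 of hg38. Its TPM was 44.6, 43.6, 44.6 and 32.7 in DMSO 1 to 4 and 9.71, 9.43, 3.01 and 7.37 in EB 1 to 4. Every EB library was far below the lowest DMSO library, and EB 3 was the lowest of all. The means were 41.4 ± 5.82 (SD, n = 4) and 7.38 ± 3.09 (SD, n = 4), so that EB stood at 17.8% of DMSO. The log2 fold change was −2.43 (standard error 0.29), the 17th lowest of 11725 genes. With each library left out in turn it lay between −2.58 and −2.10. A readthrough gene on the same strand, P3R3URF-PIK3R3, had mean TPM of 0.0357 with DMSO and 0 with EB.

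PIK3R2 encodes p85β, a full-length regulatory subunit with an SH3 domain and a pair of SH2 domains that bind phosphotyrosine. It was the most abundant member in both groups. The gene (ENSG00000105647) lies on the plus strand at chr19:18153163-18170532. Its TPM was 93.0, 108, 106 and 72.7 in DMSO 1 to 4 and 23.5, 35.7, 51.7 and 21.8 in EB 1 to 4. The groups did not overlap, and EB 3, the lowest library for PIK3R3, was the highest EB library for PIK3R2. EB stood at 34.9% of the DMSO mean, with a log2 fold change of −1.56 (standard error 0.26). An annotated gene without a symbol, ENSG00000268173, covers PIK3R2 on the same strand (chr19:18153158-18178117) and can share its reads. Its TPM was 0.762, 0.0194, 0.303 and 0.0763 in DMSO 1 to 4 and 6.55, 0, 0 and 14.1 in EB 1 to 4. It was thus highest in EB 1 and EB 4, the libraries in which PIK3R2 was lowest. With the TPM of both genes added, the EB libraries had 30.01, 35.7, 51.7 and 35.9 TPM and the log2 difference in means was −1.30, a sum chosen after seeing the data. How reads were divided between the genes is not given in the sources used here.

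PIK3R1 encodes p85α, the regulatory subunit that is the main one in many tissues, with shorter products from internal promoters. It was scarce in PANC-1 cells. The gene (ENSG00000145675) lies on the plus strand at chr5:68215740-68301821. Its TPM was 0.168, 0.257, 0.186 and 0.182 in DMSO 1 to 4 and 0.463, 0.830, 0.425 and 0.740 in EB 1 to 4. Each EB library was above each DMSO library, and none reached 1 TPM, so that the gene was not among those tested. Without the filter on low values the log2 fold change was 0.42 (standard error 0.09) and the gene was called higher. The depth behind such low TPM is unknown, and no counting interval can be given.

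Among the catalytic subunits of class IA, PIK3CA (p110α) is the one frequently mutated in carcinomas, PIK3CB (p110β) also responds to G protein-coupled receptors, and PIK3CD (p110δ) is known mainly from leukocytes. PIK3CB was the most abundant of them in each library. Its TPM was 25.5, 28.4, 22.8 and 10.7 in DMSO 1 to 4 and 14.1, 17.6, 10.6 and 9.14 in EB 1 to 4. DMSO 4, the library with the highest mitochondrial share, lay within the EB range. The log2 fold change of PIK3CB was −0.68 (standard error 0.30), which was not called. It was called without DMSO 4 (−0.97) and with TPM rescaled to nuclear genes (−0.86). The TPM of PIK3CA was 8.98, 8.79, 12.0 and 8.22 in DMSO 1 to 4 and 7.19, 7.36, 4.89 and 5.18 in EB 1 to 4. These groups were separate but adjacent, with a log2 fold change of −0.56 (standard error 0.17) that was called. PIK3CD had a TPM of 11.3, 11.8, 10.9 and 6.16 in DMSO 1 to 4 and 5.91, 7.18, 5.46 and 4.38 in EB 1 to 4. Again DMSO 4 was the library that overlapped with EB, and the log2 fold change was −0.69 (standard error 0.21, called) with it and −0.89 without it. The calls of PIK3CA and PIK3CD were each lost in 5 of the alternatives tried. For PIK3CA these were quantile normalization (−0.27), removal of the length and GC trend (−0.05) and leaving out DMSO 3 (−0.45), EB 3 (−0.47) or EB 4 (−0.49). For PIK3CD they were leaving out DMSO 1 (−0.63), DMSO 2 (−0.61), DMSO 3 (−0.64), EB 3 (−0.68) or EB 4 (−0.59). Genes on the opposite strand overlap PIK3CA (KCNMB3, mean TPM 8.04 with DMSO and 9.78 with EB) and PIK3CD (CLSTN1, 118 and 101), and the strand setting of the counting is not given in the sources used here.

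The regulatory transcripts were in excess of the catalytic ones in all libraries, by less with EB. Summed TPM of PIK3R1, PIK3R2 and PIK3R3 was 136.6 ± 21.7 (SD, n = 4) with DMSO and 41.2 ± 11.6 (SD, n = 4) with EB. Summed TPM of PIK3CA, PIK3CB and PIK3CD was 41.4 ± 10.96 and 24.8 ± 6.09 (SD, n = 4 each). The ratio of the regulatory to the catalytic sum was 3.01, 3.11, 3.30 and 4.20 in DMSO 1 to 4 and 1.24, 1.43, 2.63 and 1.60 in EB 1 to 4. The groups did not overlap, and EB 3 was the EB library nearest to DMSO. The mean ratio was 3.40 ± 0.544 (SD, n = 4) with DMSO and 1.72 ± 0.621 (SD, n = 4) with EB, and 1.97 ± 0.609 with EB when the overlapping gene was added to PIK3R2. Within the regulatory sum PIK3R3 took 30.4% ± 1.63 with DMSO and 19.9% ± 10.2 with EB (SD, n = 4 each), with EB libraries from 5.46% to 28.9%. The share of PIK3R1 was 0.147% ± 0.0280 and 1.61% ± 0.719 (SD, n = 4 each). The catalytic side kept its proportions within the spread of the libraries. PIK3CB took 51.6% ± 6.83 and 51.5% ± 2.47 of it, PIK3CA 24.2% ± 6.77 and 25.1% ± 2.35, and PIK3CD 24.2% ± 0.432 and 23.4% ± 1.90, with DMSO and EB in that order (SD, n = 4 each). These are transcript levels, and protein was not analysed here.

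**Figure D2:**
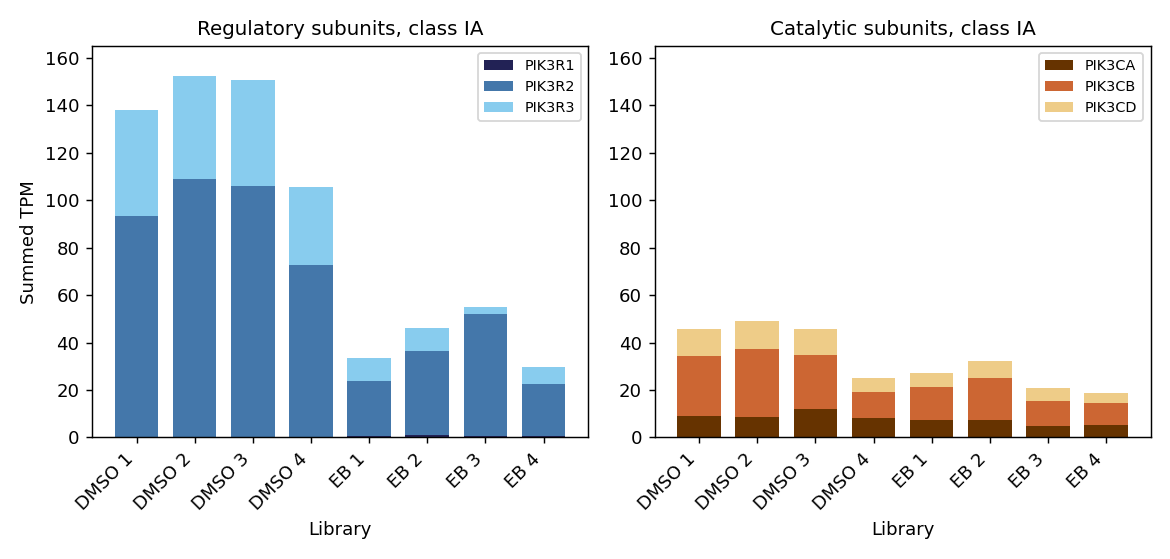
Summed TPM of the regulatory (left) and catalytic (right) subunits of class IA in each of the 8 libraries, with stacked bars from 0 that show the TPM of each gene. The regulatory stack is between 105.5 and 152.3 TPM in the DMSO libraries and between 29.9 and 55.2 in the EB libraries, whereas the catalytic stacks of DMSO 4 (25.1) and of the EB libraries (18.7 to 32.1) overlap.

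Both class II genes were called lower with EB. PIK3C2A makes the lipid used in clathrin-mediated endocytosis and in cilia, and PIK3C2B is a related kinase of endosomes and the plasma membrane. PIK3C2B (ENSG00000133056, minus strand, chr1:204422628-204494805) had a TPM of 8.09, 10.4, 8.88 and 4.303 in DMSO 1 to 4 and 1.39, 3.24, 1.11 and 1.47 in EB 1 to 4. The groups did not overlap, and the nearest libraries were DMSO 4 and EB 2. EB stood at 22.7% of the DMSO mean, with a log2 fold change of −1.67 (standard error 0.28), which is understated at these levels and was −2.12 with a pseudocount of 0.1. PIK3C2A (ENSG00000011405, minus strand, chr11:17077730-17207986) had a TPM of 11.5, 13.1, 14.1 and 11.8 in DMSO 1 to 4 and 5.45, 6.57, 4.94 and 6.40 in EB 1 to 4. Both groups were tight and well apart, and DMSO 4 did not stand out. EB stood at 46.2% of the DMSO mean, with a log2 fold change of −1.0 (standard error 0.13), the smallest standard error among the tested members.

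The class III genes showed smaller differences. The adaptor PIK3R4 (ENSG00000196455, minus strand, chr3:130678934-130746829) had a TPM of 20.2, 20.9, 22.04 and 14.4 in DMSO 1 to 4 and 12.6, 14.2, 10.6 and 9.01 in EB 1 to 4. The groups were separate, but DMSO 4 and EB 2 nearly met, and the log2 fold change was −0.69 (standard error 0.18, called). The kinase PIK3C3 (ENSG00000078142, plus strand, chr18:41955234-42087830) had a TPM of 9.70, 13.5, 13.4 and 5.83 in DMSO 1 to 4 and 6.78, 7.35, 5.89 and 9.19 in EB 1 to 4. DMSO 4 was the lowest of all 8 libraries, so that the groups overlapped. The log2 fold change of PIK3C3 was −0.44 (standard error 0.24), which was not called, and −0.67 without DMSO 4, which was. The ratio of PIK3C3 to PIK3R4 was 0.535 ± 0.112 with DMSO and 0.657 ± 0.242 with EB (SD, n = 4 each), a difference smaller than the spread of the EB libraries.

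PIK3R3, PIK3C2B and PIK3R2 were the 3 lowest members on each of the scales tried, and PIK3C2B and PIK3R2 exchanged places between them. The log2 fold changes of PIK3R3, PIK3C2B and PIK3R2 were −2.63, −1.89 and −1.75 with nuclear genes only, −2.30, −1.57 and −1.43 with median-ratio scaling, and −2.02, −1.18 and −1.30 with the length and GC trend removed. The other tested members lay between −1.19 (PIK3C2A) and −0.61 (PIK3C3) on the first of these scales, between −0.88 and −0.31 on the second, and between −0.50 and 0.09 on the last. PIK3C3 was the member that changed direction, at 0.09, when the trend was removed, and PIK3CA was then at −0.05. With DMSO 4 left out, 9 members were called lower, and with DMSO 3, EB 3 or EB 4 left out, 5 were.

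**Figure D3:**
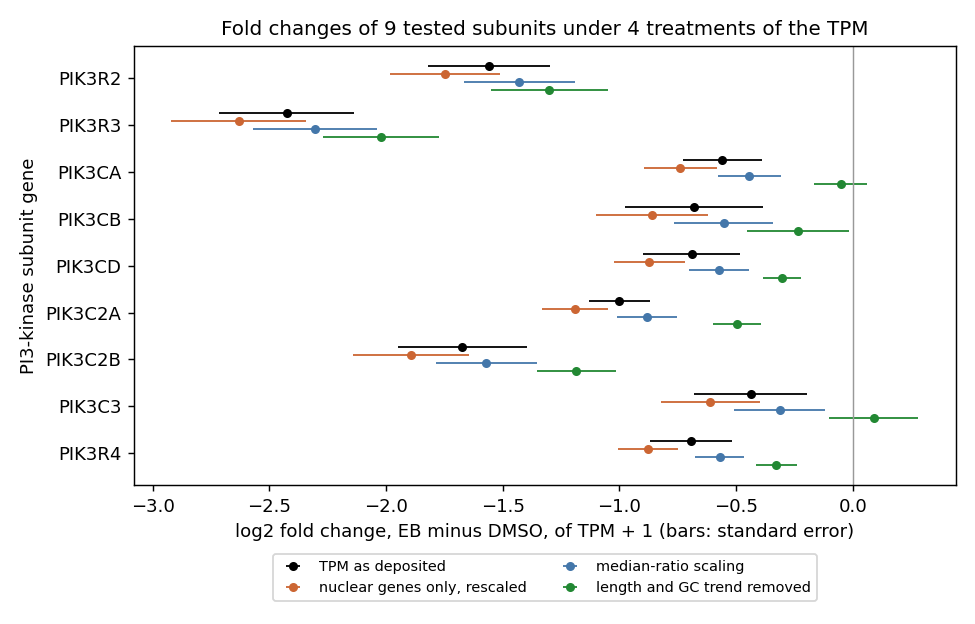
Log2 fold change (EB minus DMSO, of TPM + 1) of the 9 tested subunits with the TPM as deposited, with nuclear genes only, with median-ratio scaling and with the length and GC trend removed, with bars of 1 standard error. PIK3R3, PIK3C2B and PIK3R2 stay below −1 in all 4, whereas PIK3CA and PIK3C3 reach −0.05 and 0.09 in the last.

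Long transcripts were lower with EB across the whole table, and the subunit transcripts are long. In 10 bins of tested nuclear genes by length of the canonical transcript, the median log2 fold change went from 0.41 in the shortest bin (276 to 1225 nucleotides) to −0.54 in the longest (7317 to 34626 nucleotides). The 9 tested members lay in the 4 longest bins, whose medians were −0.28, −0.35, −0.44 and −0.54. In these bins 33.3%, 36.7%, 42.6% and 49.5% of the genes were called lower, against 25.1% of all genes tested. PIK3R2 (3980 nucleotides) fell in the first of these, PIK3R4 (5016) and PIK3CD (5412) in the next, PIK3R3 (5596) and PIK3CB (6259) after them, and PIK3C2B (7658), PIK3C2A (8428), PIK3CA (9259) and PIK3C3 (9415) in the longest. PIK3R3, PIK3C2B and PIK3R2 were below the tenth percentile of their bins (−1.07, −1.20 and −0.90). PIK3CA (−0.56) and PIK3C3 (−0.44) were close to the median of theirs. The part of length in these fold changes was not tested beyond the removal of the trend.

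**Figure D4:**
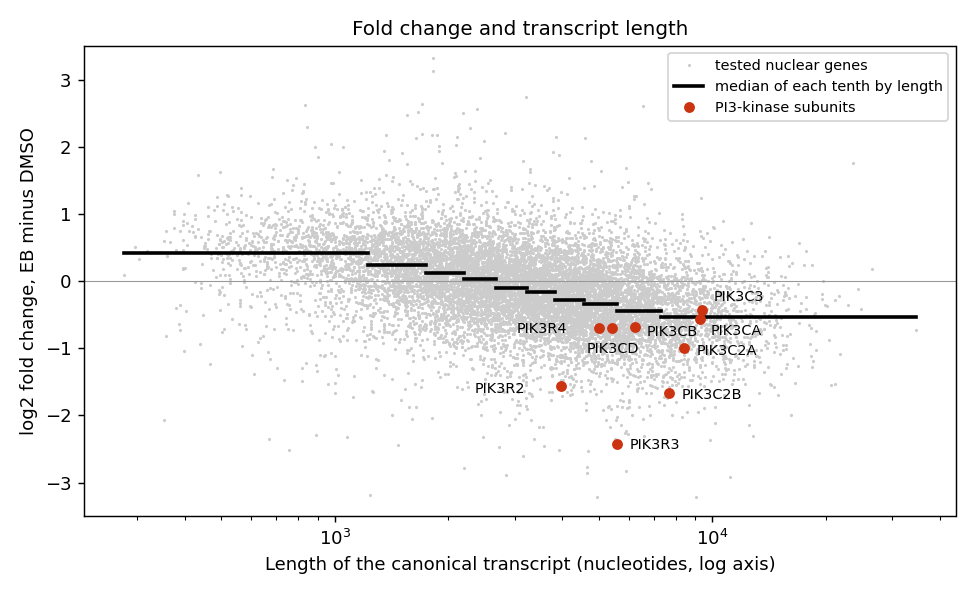
Log2 fold change (EB minus DMSO) of each tested nuclear gene against the length of its canonical transcript (log axis), with black lines for the median of each of 10 length bins and red points for the 9 tested subunits. The bin medians fall from 0.41 to −0.54, PIK3CA and PIK3C3 lie near the line of the longest bin, and PIK3R3, PIK3C2B and PIK3R2 lie far below theirs.

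The genes whose pattern over the 8 libraries was most like that of PIK3R3 were HDAC9, TNFAIP2, ACBD7, CXCL3 and KAT6B. Likeness was the root mean square difference of log2(TPM + 1), centered on the mean of each gene, and was 0.18, 0.20, 0.23, 0.29 and 0.30 for these genes in that order. HDAC9, a class IIa histone deacetylase, had a TPM of 22.04, 21.3, 20.1 and 18.1 in DMSO 1 to 4 and 3.94, 6.25, 1.06 and 3.04 in EB 1 to 4. As in PIK3R3, EB 3 was the lowest library. EB 3 was also the lowest library for TNFAIP2 (12.2 TPM), ACBD7 (0.327), CXCL3 (0.167) and KAT6B (2.63). These genes and HDAC9 were picked for their likeness to PIK3R3 over the same libraries. A shared low value in EB 3 is favored by that choice and is no independent evidence. CXCL3 was below 1 TPM in all EB libraries, at 0.716, 0.905, 0.167 and 0.357 in EB 1 to 4. It therefore passed the filter only through the DMSO libraries. The member most like PIK3R3 was PIK3C2B, at place 86 of 11724 with a difference of 0.53, followed by PIK3C2A at place 675 (0.80) and PIK3R2 at place 826 (0.83). This likeness is a description over 2 groups of 4 libraries and is set largely by the difference between the groups.

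Around the subunits, 104 other genes of the pathway were compiled in 8 lists from general knowledge, of which 92 passed the filter. The lists were drawn up with earlier results of these data known, so their shares of calls are a description and no independent evidence. Of these, 40 were called lower (43.5%) and 3 higher (3.3%) by limma at an adjusted p under 0.05, with a median log2 fold change of −0.45, against 25.1% and 15.2% of all genes tested and a median of −0.11. With DMSO 2 or DMSO 3 left out, 26 and 24 were called lower. With the length and GC trend removed, 28 of the 92 were called lower and 11 higher. Of all genes on that scale, 2548 of 11685 were called lower and 2850 higher. The shares given for the lists here and below are not matched for transcript length. In the longest bins by length, 42.6% (5589 to 7315 nucleotides) and 49.5% (7317 to 34626) of genes were called lower. IGF1R (12235 nucleotides), EGFR (9905) and GAB1 (7774), named below, fall in the longest. No list was tested as a set, and the part of length in these shares was not tested.

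The catalytic subunit of class IB and its partners were at or near 0, as was the class II gene PIK3C2G. PIK3R6 and PIK3C2G were listed at 0 in all libraries. PIK3R5 reached at most 0.0763 TPM, in DMSO 3, and PIK3CG, a gene of myeloid cells, at most 0.267 TPM. PIK3IP1, a transmembrane inhibitor of class IA enzymes, had a TPM of 5.27, 5.14, 5.12 and 2.10 in DMSO 1 to 4 and 1.47, 1.69, 1.49 and 1.02 in EB 1 to 4. It fell by 1.11 on the log2 scale (standard error 0.23, limma adjusted p = 0.0049), and its groups did not overlap. PIK3AP1, an adaptor of B cell receptors, was at 1.22 ± 0.540 and 0.743 ± 0.264 TPM (SD, n = 4 each) and was not called (log2 fold change −0.32, limma adjusted p = 0.226; 0.02 with the length and GC trend removed).

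Receptors and adaptors that bring class IA enzymes to the membrane were lower in 8 of 12 tested genes (66.7%) and higher in 0, with a median of −0.73. Over all genes tested, 25.1% were lower and 15.2% higher. IGF1R, the receptor of insulin-like growth factors, fell from 19.6 ± 6.85 to 5.95 ± 1.63 TPM (log2 fold change −1.54, limma adjusted p = 0.00204). EGFR, the receptor of epidermal growth factor, fell from 41.5 ± 9.60 to 13.95 ± 2.06 TPM (−1.48, limma adjusted p = 0.000547). GAB1, a docking protein that binds the SH2 domains of regulatory subunits, fell from 2.496 ± 0.477 to 0.623 ± 0.0882 TPM (−1.10, limma adjusted p = 0.00039; SD, n = 4 in each of these groups). Every EB library lay below every DMSO library in these 3 genes, and their calls held with the length and GC trend removed, at −0.99, −0.95 and −0.61. The EB values of GAB1 were all below 1 TPM, so that it passed the filter only through the DMSO libraries. Its call is therefore a description, and it was not tested with any DMSO library left out. With a pseudocount of 0.1 its log2 fold change was −1.83.

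Partners and readers of the class III lipid were lower in 5 of 11 tested genes (45.5%) and higher in 1 (9.1%), with a median of −0.43. Over all genes tested, 25.1% were lower and 15.2% higher. The higher call was HGS, an endosomal sorting protein that binds the class III lipid, at 0.60 on the log2 scale (limma adjusted p = 0.0209), which is named after its value was seen. BECN1, the autophagy subunit of the PIK3C3 complex, was at 52.7, 60.3, 52.8 and 55.9 TPM in DMSO 1 to 4 and at 32.2, 38.3, 43.1 and 26.0 in EB 1 to 4. It fell by 0.67 on the log2 scale (limma adjusted p = 0.00946), and DMSO 4 did not differ from the other DMSO libraries. PIKFYVE, which phosphorylates the class III lipid further, and EEA1, which tethers early endosomes, fell by 0.94 and 0.74 on the log2 scale (limma adjusted p = 0.00716 and 0.00409). EEA1 was not called with the length and GC trend removed (−0.23, limma adjusted p = 0.0586), and BECN1 was (−0.75).

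Phosphatases that oppose PI3-kinase signaling were lower in 8 of 18 tested genes (44.4%) and higher in 0, with a median of −0.52. Over all genes tested, 25.1% were lower and 15.2% higher. The list held mostly lipid phosphatases, but also the protein phosphatases PHLPP1 and PHLPP2, neither of which was called. MTMR4 and MTMR3, myotubularins that act on endosomal lipids, were at −1.34 and −0.87 (limma adjusted p = 0.00676 and 0.0172), and MTMR3 was not called without the trend (−0.36) or without DMSO 3 (−0.81). INPPL1 (SHIP2) was at −0.63 (limma adjusted p = 0.0194). Its call was lost with DMSO 1, DMSO 2, DMSO 3, EB 3 or EB 4 left out. The kinases that make the substrates of PI3-kinases were lower in 4 of 9 tested genes (44.4%) and higher in 0 (median −0.37). PIP5K1A was at −0.99, PI4K2B at −0.94 and PI4KA at −0.89 (limma adjusted p = 0.0115, 0.000966 and 0.00678).

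Downstream, the list of AKT and direct effectors also held PDPK1 and SGK1 to SGK3, which are not effectors of AKT. In it 4 of 16 tested genes, or 25.0%, were lower and 0 higher, with a median of −0.34. Over all genes tested, 25.1% were lower and 15.2% higher. AKT1 and AKT2 were not called. AKT1 was at 124 ± 33.6 TPM with DMSO and 92.4 ± 20.5 with EB, and AKT2 at 109 ± 31.2 and 75.1 ± 15.0 (SD, n = 4 each; limma adjusted p = 0.217 and 0.111). DMSO 4 was the lowest DMSO library for AKT1 and AKT2, which were called lower without it (−0.62 and −0.71), with nuclear genes only (−0.58 and −0.68) and with quantile normalization (−0.52 and −0.60). TSC2 and TSC1, the inhibitors of RHEB, were at −0.76 and −0.67 (limma adjusted p = 0.00541 and 0.011), and neither was called with the length and GC trend removed (−0.31 and −0.16). SGK2, a kinase related to AKT, was at −0.85 (limma adjusted p = 0.0234). It was not called with quantile normalization (−0.65) or with DMSO 2, DMSO 3, EB 1 or EB 3 left out. Its TPM was 1.05 to 2.77 in the DMSO libraries and 0.271, 0.919, 0.109 and 1.14 in EB 1 to 4, so that the groups overlapped. These values are near the floor, SGK2 passed the filter mainly through the DMSO libraries, and its call is a description.

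The list of mTOR complexes also held RHEB and targets of mTOR signaling. In it 3 of 14 tested genes were lower (21.4%) and 1 was higher (7.1%), with a median of −0.25. Over all genes tested, 25.1% were lower and 15.2% higher. MTOR was the only subunit of the complexes that was called. EIF4EBP1, the repressor of cap-dependent translation that mTOR inactivates, had a TPM of 263, 254, 252 and 167 in DMSO 1 to 4 and 631, 601, 653 and 627 in EB 1 to 4. It rose by 1.44 on the log2 scale (limma adjusted p = 0.000251), its groups did not overlap, and it stayed at 1.11 with the length and GC trend removed. MTOR and the autophagy kinase ULK1 were at −0.81 and −0.65, with limma adjusted p = 0.0453 and 0.0437. Both lost their calls with a pseudocount of 0.1, without the filter on low values and with any library other than DMSO 4 and EB 2 left out, and MTOR also with the length and GC trend removed (−0.31). Genes known to be activated by FOXO factors, which AKT holds in check, were lower in 7 of 10 tested genes (70%) and higher in 1 (10%), with a median of −1.04. GADD45A, a stress gene of growth arrest, rose from 27.8 ± 6.02 to 108 ± 12.0 TPM (log2 fold change 1.94, limma adjusted p = 7.17e-05). BCL6 and TXNIP fell by 1.68 and 1.37 on the log2 scale (limma adjusted p = 0.00171 and 6.88e-05), and TXNIP was at 78.6 ± 6.53 TPM with DMSO and 29.7 ± 1.80 with EB (SD, n = 4 each). Factors other than FOXO can also drive the genes of this list, whether they rose or fell. The activity of FOXO factors was not tested.

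**Figure D5:**
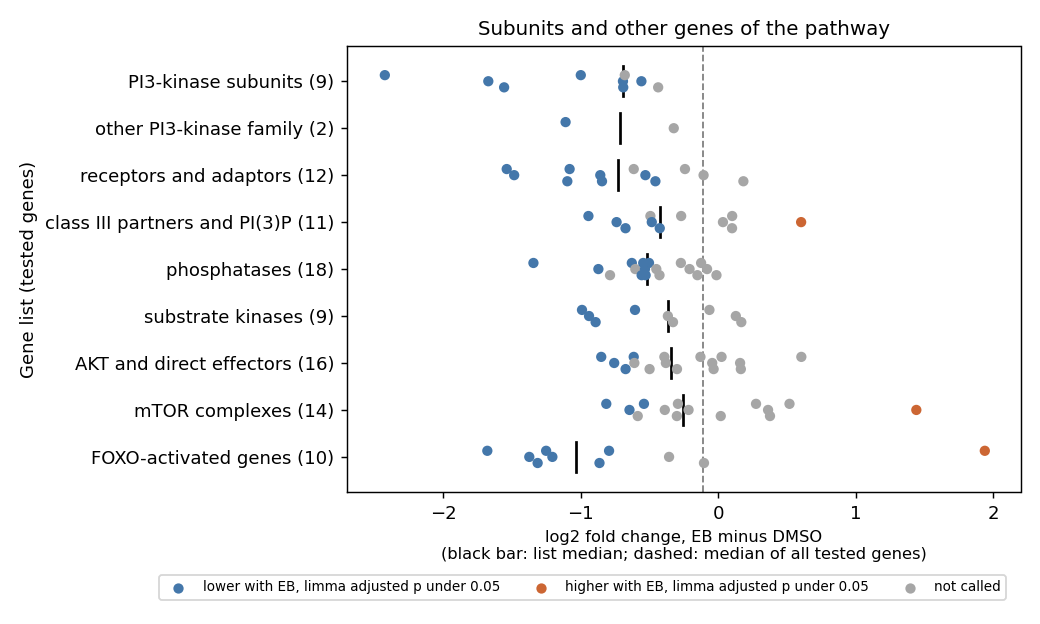
Log2 fold change (EB minus DMSO) of the 9 tested subunits and of the tested genes of 8 other lists of the pathway, where each point is a gene, colored by its call at a limma adjusted p under 0.05, black bars are list medians and the dashed line is the median of all genes tested (−0.11). Calls lie mostly to the left in each list, and HGS, EIF4EBP1 and GADD45A are the 3 higher calls.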

How the data were processed

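RNA was taken from PANC-1 cells treated with EB or DMSO and sequenced as mRNA libraries. Per the methods, the authors trimmed, mapped and normalized the reads in CLC Genomics Workbench, name HISAT2 and StringTie among further tools, and give both GrCM38 and hg38 as the genome. The authors deposited TPM, normalized within each library. The table holds no read counts, so the depth of each library and the precision it gives are unknown here. Columns headed C were read as DMSO and columns headed H as EB, the groups the labels give.

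Symbols for 20148 of the 20263 identifiers, positions and transcript lengths were taken from GENCODE release 44 (hg38). Genes that reached 1 TPM in 4 or more libraries were tested by limma 3.58.1 (R 4.3.3; lmFit and eBayes without trend or block, prior degrees of freedom 3.88) on log2(TPM + 1), a scale that understates the change of low genes, with Benjamini-Hochberg adjustment over all genes tested. Standard deviations are over 4 libraries. P-values set the difference between the groups against the spread between these libraries of 1 cell line. The steps were tested on simulated data. Tables and plots were made in Python 3.11.15 with pandas 2.3.3, numpy 2.4.6 and matplotlib 3.10.9.

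The members, the lists and the genes to name were chosen with earlier results of these data known. Named were all members, the other genes of the PI3-kinase family, up to 3 called genes of each further list by absolute log2 fold change, BECN1, MTOR, AKT1 and AKT2, and the 5 genes most like the member with the largest fold change. Some genes that this rule covers are not reported here. The alternatives tried were quantile normalization, median-ratio scaling, nuclear genes only with rescaled TPM, removal of the length and GC trend (splines with 4 degrees of freedom), a minimum of 5 TPM or none, a pseudocount of 0.1, an intensity trend, a replicate block and each library left out. The sum of PIK3R2 with its overlapping gene, the alternatives for the class IA ratio and those for single pathway genes were added after seeing the data. The replicate numbers were not taken to pair the libraries.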

Additional observations from a re-analysis of the deposited data

Results flagged for a closer look

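In each group of 4 libraries, the members' TPM and the ratios between subunits were checked for a library far from the others, by Dixon's test. Of 26 groups checked, 5 held such a library, where chance gives about 1 in 20 for a single check. The checks share libraries, and the ratios are built from TPM that were also checked. They are therefore not independent, and no excess over chance is read from the count. PIK3R3 (32.7 TPM) and PIK3CD (6.16 TPM) were lowest in DMSO 4, the library with the highest mitochondrial share. PIK3C2B was highest among the EB libraries in EB 2, at 3.24 TPM. The ratio of PIK3C3 to PIK3R4 was 1.02 in EB 4 and at most 0.554 in the other EB libraries. The ratio of PIK3R2 to PIK3R3 was 17.2 in EB 3, against 2.42 to 3.79 in the other EB libraries and 2.09 to 2.49 in the DMSO libraries. The part of the mitochondrial share in the values of DMSO 4 was not tested.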

How the results depend on the processing

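The number of members called lower with EB was 7 and stayed within 5 and 9 with each library left out, and the number called higher was 0 in each of these but 1 without the filter on low values, PIK3R1. PIK3R2, PIK3R3, PIK3C2A, PIK3C2B and PIK3R4 kept their direction and call under every alternative that gave a value for them, and PIK3C3 turned to 0.0892 with the length and GC trend removed. PIK3AP1 turned to 0.0159 under the same setting. Of other pathway genes, 24 to 57 were called lower with a library left out (26 without DMSO 2, 24 without DMSO 3) and 2 to 4 higher. Higher calls among them were 7 with median-ratio scaling, 8 with quantile normalization, 11 with the trend removed and 6 with the replicate block, against 3. Over all genes, 1950 to 4218 were called lower and 1240 to 1824 higher with a library left out, against 2944 and 1785. Lower calls were 4954 with nuclear genes only, and higher calls were 3152 with median-ratio scaling, 2804 with quantile normalization and 2850 with the trend removed. The class IA ratio was 3.14 to 3.54 (DMSO) and 1.42 to 1.89 (EB) with a library left out. With the replicate block 8 members were called lower, PIK3CB being added, and over all genes 3525 were called lower and 2231 higher. The correlation across genes of same-numbered libraries, as deviations from the group means, was 0.18, 0.05, −0.09 and 0.28 for numbers 1 to 4. Libraries 1 and 4 correlated best with their own number and libraries 2 and 3 did not, so the numbers were not taken to pair the libraries. The mitochondrial share was lowest in library 1 and highest in library 4 of both groups. The cause of these differences was not tested. TPM hold no depth, so the precision of low values such as those of PIK3R1 is unknown.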
